A study of Mus musculus with 2 samples.

Results

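The genes described here encode splicing factors of the Srsf, Hnrnp, Sf3 and Snrp families in mouse microglia taken 24 h after an injection of lipopolysaccharide (LPS). They were chosen by symbol and depth: 51 gene symbols of the tables began with Srsf and a digit, Hnrnp, Sf3a, Sf3b or Snrp, and 49 of them had at least 20 UMIs (unique molecular identifiers, each marking 1 captured transcript) over both libraries. The 49 genes are 10 of the Srsf, 20 of the Hnrnp, 8 of the Sf3 and 11 of the Snrp family, among 9085 genes that met the same minimum. The other two were Snrpn, with 4 UMIs in WT LPS and not listed in KO LPS, and Srsf12, with 1 UMI in KO LPS and not listed in WT LPS. The member nearest above the minimum was Hnrnpa1, with 39 UMIs. No row carries the symbol Sf3b6, but its older symbol 0610009D07Rik is present and is counted with the small nuclear ribonucleoprotein list below.

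The study set microglia of mice that lack PARK7/DJ-1 (knock-out, KO) against wildtype (WT) microglia during systemic inflammation, where DJ-1 is a protein linked to early-onset Parkinson's disease and to the handling of oxidative stress. The KO line carries a gene trap in Park7 and was backcrossed to C57BL/6NCrl, and the WT mice were its adult littermates. All mice received LPS, a bacterial membrane component, by 1 intraperitoneal injection, and both libraries date from 24 h later. Brain cells were sorted as CD11b+CD45int and run on Drop-seq, a droplet method that reads the 3′ ends of transcripts. Each genotype is represented by 1 library made from 2 pooled mice, 1 female and 1 male, so that genotype and library cannot be told apart and no test between genotypes was possible. No untreated library was used here, so nothing below describes a response to LPS.

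Splicing removes introns from new transcripts on the spliceosome, which is built around small nuclear ribonucleoproteins (snRNPs). Each major snRNP except U6 holds an RNA inside a ring of Sm proteins, and a few proteins of its own. The ring is made of the products of Snrpb, Snrpd1, Snrpd2, Snrpd3, Snrpe, Snrpf and Snrpg. The SF3A and SF3B complexes help the U2 snRNP hold the branch site. SR proteins, encoded by the Srsf genes, mostly favour the use of nearby exons, while hnRNP proteins coat new transcripts and often oppose it. Activated immune cells alter splicing widely, and several of these proteins control their own transcripts through exons that lead to decay.

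Cells were barcodes with at least 500 UMIs and at least 100 genes. KO LPS had 320 such cells of 9999 barcodes, with a median of 963.5 UMIs, and WT LPS had 1427 with a median of 1065. The sum over cells was 381305 UMIs in KO LPS against 1989011 in WT LPS, so that a gene at the same level gave fewer UMIs in KO LPS. No cell barcode was shared between the libraries (0 shared among cells and 11 among all barcodes). Levels are UMIs per 1e6 UMIs of the library's cells (CPM), and values in brackets are exact 95% intervals, which cover counting error only. Because 3′ reads count each transcript once, levels are not divided by length and are compared between libraries only, gene by gene.

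Park7 itself gave 1 UMI in KO LPS against 323 in WT LPS (2.62 and 162 CPM), as the labels say. All 12 microglial markers were detected in both libraries, with a summed level of 36359 CPM in KO LPS against 28227 in WT LPS. The libraries were far apart in other ways. Of measured inflammatory response genes 24 of 24 were at least 1.5-fold lower in KO LPS, beside 25.8% of all genes. The 26 listed summed to 1052 CPM in KO LPS against 15044 in WT LPS. That list was drawn up after the data were seen, so its count is no independent measure of the libraries. Choroid plexus markers summed to 2137 CPM in KO LPS against 15.1 in WT LPS, most of it Ttr. Enpp2, with 90 and 7 UMIs, was 67.1-fold higher in KO LPS, and Aqp1 was at 0 in both. Astrocyte markers gave 438 and 201 CPM, with Aqp4 at 0 in both. The neutrophil list gave 430 and 257 CPM, all of the KO LPS value from Csf3r, with S100a8 and S100a9 at 0 there. The lists of monocytes, border macrophages, lymphocytes, oligodendrocytes, endothelial cells and neurons summed to between 7.87 and 296 CPM in KO LPS and between 15.1 and 303 in WT LPS. Of the border macrophage list Mrc1 had 24 and 21 UMIs (62.9 and 10.6 CPM), 5.96-fold higher in KO LPS [3.18, 11.3], and the other 6 detected genes, Ms4a7 and Cd163 among them, were at 0 there. Of the monocyte list Ccr2 had 8 and 15 UMIs, 2.78-fold higher in KO LPS [1.02, 6.99], and Ly6c2 was at 0 in both libraries. Cd3d was at 0 in KO LPS and Mog in both. The oligodendrocyte genes Mag (14 and 73 UMIs) and Cnp (11 and 40 UMIs) were present in both. Cells with an Xist UMI and no Y-linked UMI were 200 of KO LPS and 565 of WT LPS, and cells with the opposite pattern were 12 and 195. The part of these differences in the results below was not tested, apart from the values given beside them.

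As a group the 49 splicing factors had slightly lower levels in KO LPS, and the Snrp family stood lowest. The median log2 ratio between the libraries (KO LPS over WT LPS) was -0.26 for the 49 members and 0.03 for all 9085 genes, and 36 of 49 members lay below 0. Their summed level was 9071 CPM in KO LPS against 10685 CPM in WT LPS, a ratio of 0.849 [0.819, 0.880]. A fold of 1.5 in the log2 ratio, which carries a prior count of 0.5 UMIs per library, was taken as the mark of a difference, whereas printed folds are ratios of levels without it: 16 of 49 members (32.7%) were lower by that much and 5 of 49 (10.2%) higher, where 25.8% of all genes were lower and 26.2% higher. By family, the median log2 ratio was -0.16 for Sf3, -0.21 for Srsf, -0.24 for Hnrnp and -1.00 for Snrp. In the Snrp family 8 of 11 genes were at least 1.5-fold lower, and 1 was higher. Without the Snrp family, 8 of 38 members (21.1%) were lower and 4 of 38 (10.5%) higher, both shares under those of all genes. In the 12 and 195 cells with a Y-linked and no Xist UMI the median over the 39 members with enough UMIs was 0.16, with 10 of 39 higher and 10 of 39 lower, where 33.3% of all 3377 genes were higher and 34.9% lower. In the 200 and 565 cells with the opposite pattern it was -0.28.

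**Figure D1:**
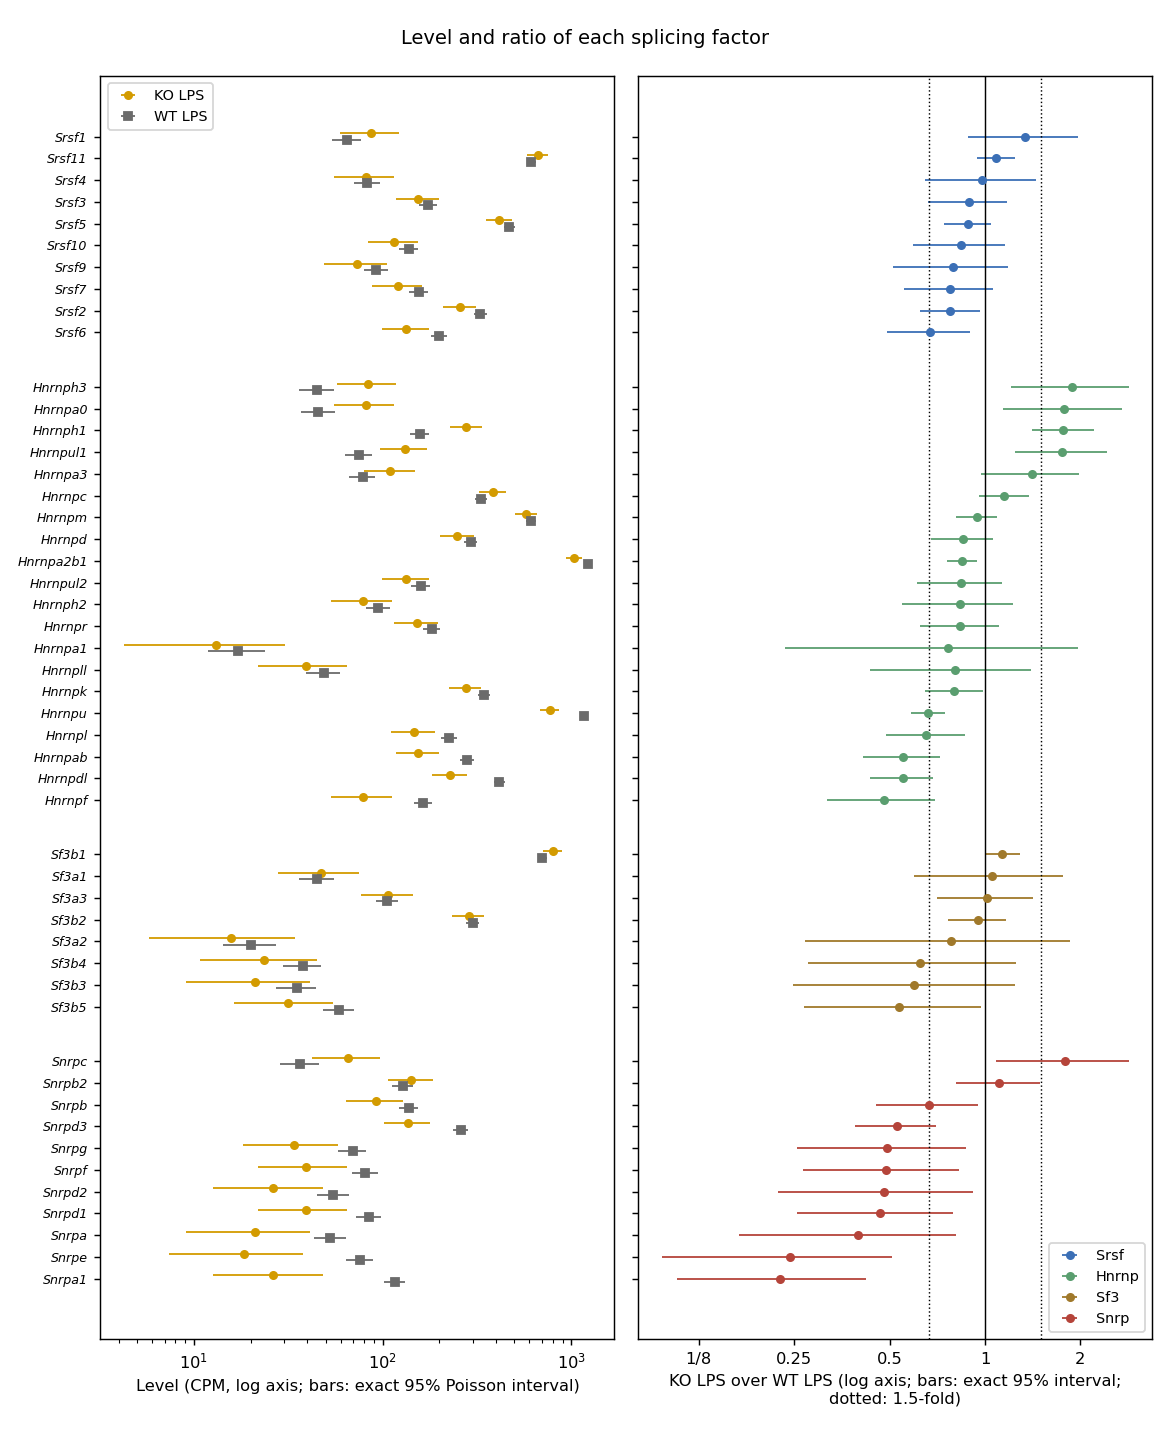
The left panel plots the level of each of the 49 members in CPM on a log axis, circles for KO LPS and squares for WT LPS with exact 95% Poisson intervals, and the right panel the KO LPS level over the WT LPS level with its exact 95% interval, coloured by family, with dotted lines at a fold of 1.5 either way. Of the 11 Snrp points 9 lie left of the lower dotted line, Snrpb only just, and no Srsf point lies past either line.

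The lower Snrp level was that of the Sm ring and of 1 protein each of U1 and U2. All 7 ring genes had a ratio below 1, and 6 of 7 were lower by the 1.5-fold mark, beside 25.8% of all genes. By the ratio of levels without the prior count 7 of 7 were, a setting with no share of all genes computed. The summed level of the ring was 386 CPM in KO LPS against 762 CPM in WT LPS, a ratio of 0.506 [0.424, 0.599]. The 7 log2 ratios lay between -1.95 and -0.57 around a median of -1.00, and their SD of 0.42 was close to the 0.39 that counting error alone would give. For the whole Snrp family the SD was 0.84 against 0.39 from counting, since the proteins particular to U1 and U2 split in both directions.

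The start regions of 4 Snrp genes are shown because they have the lowest and the highest ratio of the family, Snrpa1 and Snrpc, and the lowest ratio and most UMIs of the ring, Snrpe and Snrpd3. Each run covers 250 bases before to 50 bases after the annotated start, read 5′ to 3′ on the gene's strand, from RefSeq on GRCm38.p6, and capitals mark the core letters of ETS factor sites, CCGGAA or TTCCGG on the other strand, overlapping matches merged. Snrpa1 lies at chr7:66060086-66060385 on the plus strand, Snrpe at chr1:133610231-133610530 on the minus strand, Snrpd3 at chr10:75517792-75518091 and Snrpc at chr17:27839837-27840136, both on the plus strand.
Snrpa1: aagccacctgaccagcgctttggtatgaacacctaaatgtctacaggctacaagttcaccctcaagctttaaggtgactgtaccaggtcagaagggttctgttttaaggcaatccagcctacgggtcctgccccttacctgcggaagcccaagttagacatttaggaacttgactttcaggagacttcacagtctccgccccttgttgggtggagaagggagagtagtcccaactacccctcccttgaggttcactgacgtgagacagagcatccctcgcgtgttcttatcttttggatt
Snrpe: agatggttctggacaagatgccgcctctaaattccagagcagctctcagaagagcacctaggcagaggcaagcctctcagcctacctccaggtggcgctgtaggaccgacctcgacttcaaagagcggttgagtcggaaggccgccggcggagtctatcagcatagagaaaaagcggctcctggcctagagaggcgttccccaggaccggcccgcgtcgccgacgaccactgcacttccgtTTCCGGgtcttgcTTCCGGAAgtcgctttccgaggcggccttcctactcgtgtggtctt
Snrpd3: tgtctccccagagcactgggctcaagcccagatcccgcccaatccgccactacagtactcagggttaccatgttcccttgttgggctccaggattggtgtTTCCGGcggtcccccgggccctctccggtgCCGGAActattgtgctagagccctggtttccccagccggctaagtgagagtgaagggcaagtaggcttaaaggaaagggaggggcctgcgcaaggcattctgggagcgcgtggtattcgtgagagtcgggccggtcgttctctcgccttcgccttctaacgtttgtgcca
Snrpc: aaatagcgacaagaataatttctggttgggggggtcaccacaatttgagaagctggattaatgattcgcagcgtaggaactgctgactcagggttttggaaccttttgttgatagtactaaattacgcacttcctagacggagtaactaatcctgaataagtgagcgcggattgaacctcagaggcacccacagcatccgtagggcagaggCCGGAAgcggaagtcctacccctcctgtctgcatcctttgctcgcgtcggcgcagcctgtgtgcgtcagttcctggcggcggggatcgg
Snrpe held the ETS core 3 times around its start, at positions -9, 5 and 7 counted from the start, Snrpd3 held it further upstream at -150 and -120, Snrpc at -39, and Snrpa1 nowhere in this window. Their share of G and C was 50.7% for Snrpa1, 60.3% for Snrpe, 60.3% for Snrpd3 and 52.7% for Snrpc.

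Over the family, 5 of 9 Snrp promoters with an entry (55.6%) held the ETS core, as did 22 of 43 member promoters (51.2%), 33.1% of the 7093 promoters of genes tested and 19.1% of all 17491 protein-coding promoters. Matches were counted on both strands. The TGACGT letters of a cyclic AMP response element were in 11 of 43 member promoters (25.6%) and 13.4% of those of genes tested, and CCAAT was in 21 of 43 (48.8%) and 38.7%. By family CCAAT was in 12 of 18 Hnrnp, 4 of 10 Srsf, 2 of 6 Sf3 and 3 of 9 Snrp promoters. GGGCGG was in 69.8% of member promoters and 66.5% of those of genes tested, CACGTG in 11.6% and 11.3%, and TATAAA in 14.0% and 6.47%. The 10 letters of the NRF1 site were in 0 of 43 member promoters and 2.40% of those of genes tested. Of the Snrp genes past the mark, the core stood in Snrpc, which was higher, and in Snrpe, Snrpg and Snrpd3, which were lower, and it was missing from Snrpa1, Snrpa, Snrpd2 and Snrpf, which were also lower. Snrpd1, lower as well, has no entry here. It stood in Snrpb2 too, which was not past the mark.

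Snrpe, a ring subunit, had 7 UMIs in KO LPS against 151 in WT LPS, or 18.4 and 75.9 CPM, a level 4.14-fold lower in KO LPS [1.96, 10.5]. Snrpd3, the ring gene with most UMIs, had 52 and 515 UMIs, or 136 and 259 CPM, which is 1.90-fold lower [1.43, 2.58]. Only in the small set of 12 and 195 cells with a Y-linked and no Xist UMI was its log2 ratio above 0, at 0.31. Snrpb, whose product SmB is closely related to the SmN of Snrpn, had 35 and 274 UMIs, or 91.8 and 138 CPM. Its levels differed by just over 1.5-fold [1.05, 2.20], but its log2 ratio with the prior count, -0.57, fell just short of the mark. The other four ring genes lay close together. Snrpd1 had 15 and 168 UMIs (39.3 and 84.5 CPM), 2.15-fold lower in KO LPS [1.27, 3.92]. Snrpf had 15 and 161 UMIs (39.3 and 80.9 CPM), 2.06-fold lower [1.21, 3.76]. Their intervals exclude 1, as do those of the other two. Snrpg with 13 and 138 UMIs was 2.04-fold lower [1.15, 3.92]. Snrpd2 came next, at 10 and 109 UMIs and 2.09-fold lower [1.09, 4.48]. These calls were not all kept under other settings. With cells thinned to 500 UMIs the log2 ratios of Snrpf and Snrpg were both -0.31, in the 200 and 565 Xist cells Snrpd2 was at -0.47 and Snrpf at -0.53, and against genes of its length band Snrpd1 was at -0.48. Of the ring genes past the mark, Snrpe stayed past it in every alternative that gave it a value. The 7 counts in KO LPS range from 7 to 52 UMIs, and all but the Snrpb value in KO LPS were under the WT LPS level by at least 1.90-fold.

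The proteins that belong to 1 snRNP only split in both directions. Snrpa1 encodes the A′ protein of the U2 snRNP and had the lowest ratio of all 49 members, with 10 and 231 UMIs (26.2 and 116 CPM), 4.43-fold lower in KO LPS [2.36, 9.36]. Its partner Snrpb2, which encodes the B″ protein of U2, had 54 and 254 UMIs (142 and 128 CPM), a ratio of 1.11 [0.811, 1.49]. The same contrast was seen for U1. Snrpa, which encodes the A protein of U1, had 8 and 105 UMIs (21.0 and 52.8 CPM), 2.52-fold lower [1.23, 5.98]. Snrpc, which encodes the C protein of U1, had 25 and 73 UMIs (65.6 and 36.7 CPM) and was the 1 Snrp gene past the mark upwards, with a ratio of 1.79 [1.09, 2.85]. The summed level of the U1-specific pair was 86.5 CPM in KO LPS against 89.5 CPM in WT LPS, a ratio of 0.967 [0.646, 1.41]. That of the U2-specific pair was 168 CPM in KO LPS against 244 CPM in WT LPS, a ratio of 0.688 [0.522, 0.895].

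The Snrp values were next set beside all genes of like depth. Among genes of 100 to under 300 UMIs over both libraries, 25.5% of 2862 were at least 1.5-fold lower in KO LPS and the median log2 ratio was -0.03. All 7 Snrp genes in that band were lower, with a median of -1.06. In the band of 300 to under 1000 UMIs 30.4% of 1301 genes were lower, with a median of -0.16. The 3 Snrp genes there had a median of -0.57, and 1 of 3 was lower by the mark, a share near that of all genes. The remaining Snrp gene, Snrpc, was the only one under 100 UMIs. With at least 100 UMIs over both libraries, 27.5% of 4469 genes were lower and 20.4% higher.

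Transcript length went with the ratio over the whole table, and Snrp transcripts are short. The canonical transcripts of Snrp genes had a median of 1335 bases, against 2695 for Srsf, 3733 for Hnrnp, 3550.5 for Sf3 and 3427 for all genes tested. Of all genes with transcripts under 1000 bases, 49.5% were at least 1.5-fold lower in KO LPS, with a median log2 ratio of -0.57, and of those with 4000 bases or more 15.8% were, with a median of 0.31. Among 1504 genes of 1000 to under 2000 bases the median was -0.31 and 37.8% were lower. Short genes of at least 100 UMIs over both libraries, a depth that all Snrp genes but Snrpc reached, stood lower still. Under 1000 bases 59.5% of 264 such genes were lower, with a median of -0.73. From 1000 to under 2000 bases 41.8% of 749 were, with a median of -0.44. The 6 Snrp genes of that length had a median of -1.00 and 5 of 6 were lower, while the 4 other members of that length had a median of -0.22 and 0 of 4 were. Under 1000 bases, the 3 Snrp genes had a median of -1.06, with 2 of 3 lower and 1 of 3 higher. After the median of all genes in the same length band was taken off, the Snrp median was -0.69 and the Hnrnp median -0.47, an alternative chosen after the data were seen. Across the 49 members, Spearman's rho of ratio with transcript length was 0.29, and across 8743 genes it was 0.30. These genes share 2 libraries and are not independent, and within the 11 Snrp genes rho was 0.13. Annotations differ for Sf3b5, taken here at 3841 bases but with a RefSeq span of 734 bases, so its length band is uncertain.

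**Figure D2:**
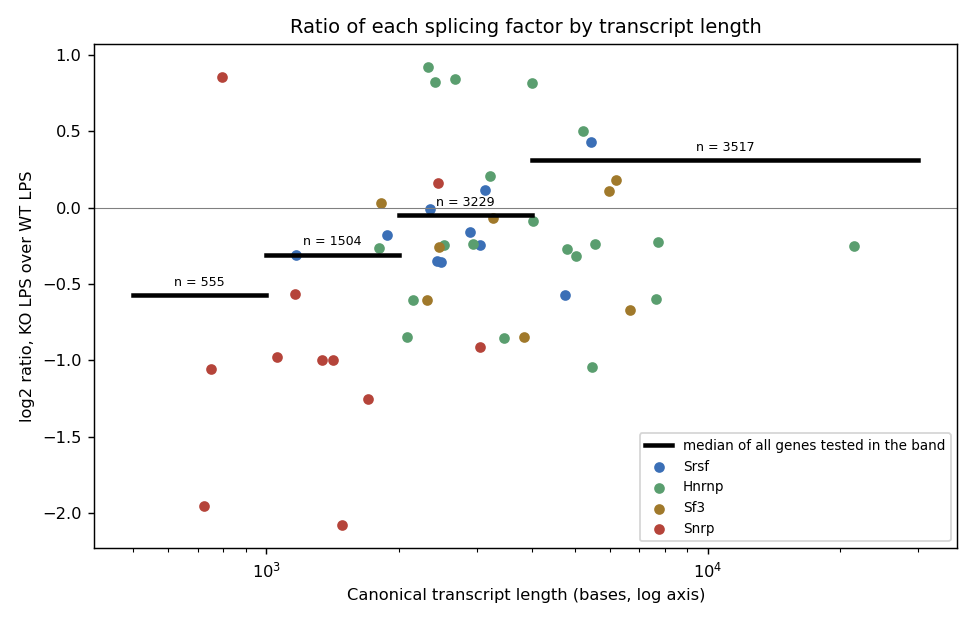
Each point is 1 of the 49 members, at its canonical transcript length in bases (log axis) and its log2 ratio, and each black line is the median of all genes tested in a length band, with the number of genes above it. Lines climb from -0.57 under 1000 bases to 0.31 at 4000 bases or more, and 9 of the 11 Snrp points lie below 0.

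The Snrp ratio was below 1 in each band of cell depth. In cells of 500 to under 1000 UMIs (172 of KO LPS and 657 of WT LPS) the ratio of summed Snrp levels was 0.614 [0.470, 0.791]. It was 0.644 [0.526, 0.783] in cells of 1000 to under 2000 UMIs and 0.515 [0.388, 0.672] in the 34 and 236 cells of 2000 UMIs or more. For the ring alone these ratios were 0.509, 0.552 and 0.481. The Sf3 ratio lay between 0.923 and 1.08 over the same bands, and the Srsf ratio between 0.840 and 0.934. In cells with an Xist UMI and no Y-linked UMI the Snrp median was -1.00, and without the 1 cell that held 10 or more choroid plexus UMIs it was -0.99. Split by inflammatory response UMIs after thinning, the ring ratio was nearer to 1. Its intervals held both 1 and the 0.506 of all cells. The ring ratio was 0.848 [0.441, 1.71] in the 203 and 73 cells with none and 0.825 [0.491, 1.34] in the 109 and 270 cells with 1 or 2. The Snrp ratios there were 0.707 [0.444, 1.15] and 0.794 [0.523, 1.18]. Those of the LSm proteins, described below, were 0.470 [0.274, 0.816] and 1.07 [0.650, 1.73].

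**Figure D3:**
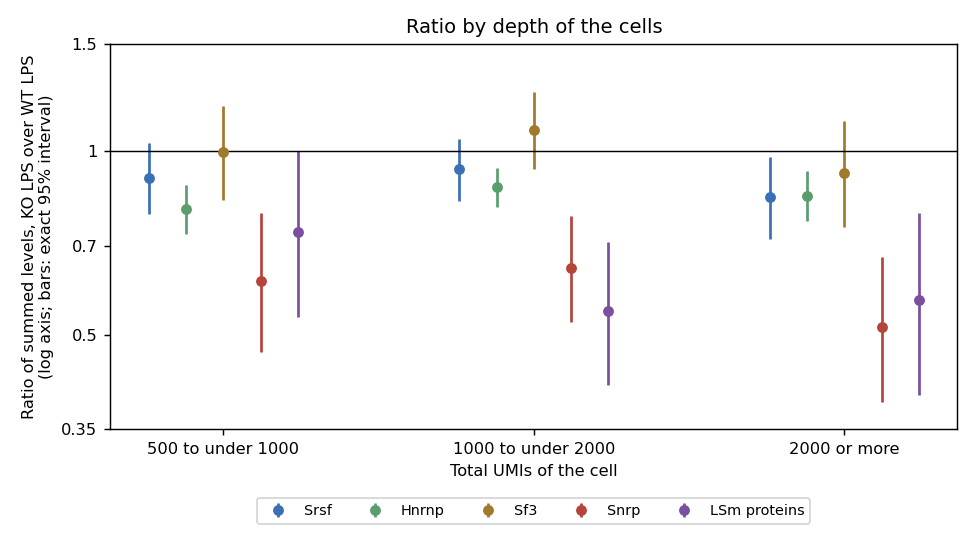
Points are the ratio of summed levels of a family, KO LPS over WT LPS, in cells of 3 depth bands, on a log axis with exact 95% intervals. In each band the Snrp interval stays below 1, while each Sf3 interval spans 1.

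In the barcodes of 100 UMIs or fewer, which mostly hold free RNA, the Snrp ratio between the libraries lay near 1. There the Snrp level was 513 CPM in KO LPS against 475 CPM in WT LPS, a ratio of 1.08 [0.832, 1.40]. Cells of WT LPS stood 2.31-fold above their own low-count barcodes [1.95, 2.74], and cells of KO LPS 1.25-fold [0.986, 1.59]. For the ring the folds were 2.64 [2.14, 3.30] in WT LPS and 1.63 [1.17, 2.31] in KO LPS. The other families stood nearer to their background in both: Hnrnp cells were at 1.02-fold in KO LPS and 1.16-fold in WT LPS, Sf3 at 1.20-fold and 1.14-fold, and Srsf at 1.20-fold and 1.43-fold. Over all barcodes outside the cells, those of more than 100 UMIs included, the Snrp level was 475 CPM in KO LPS against 594 CPM in WT LPS, a ratio of 0.799 [0.663, 0.959].

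**Figure D4:**
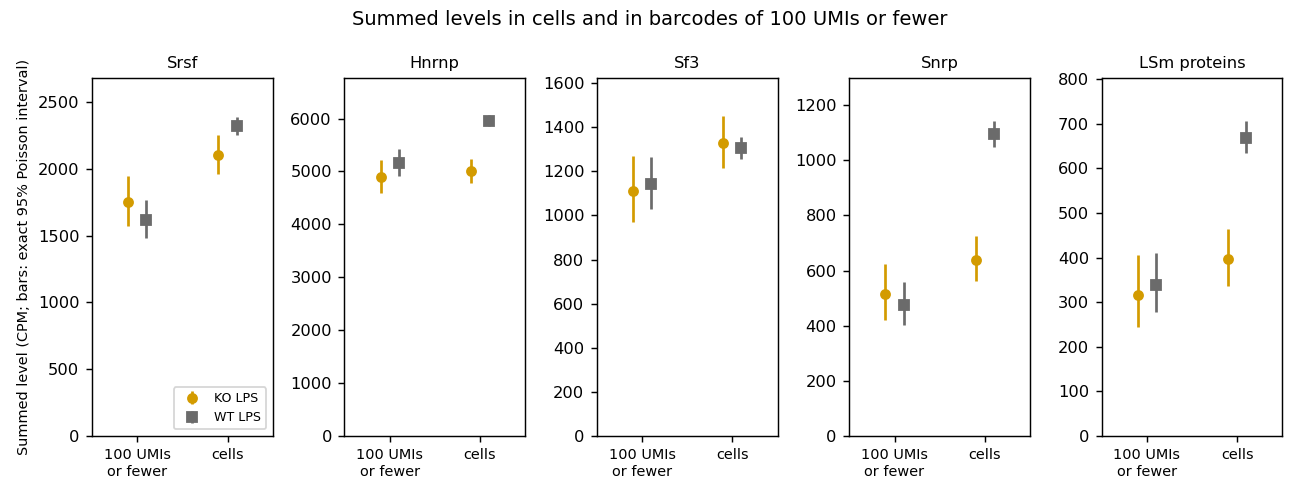
Summed levels in CPM of the 4 families and of the LSm proteins, in barcodes of 100 UMIs or fewer and in cells, circles for KO LPS and squares for WT LPS with exact 95% Poisson intervals, each panel with its own axis from 0. In the Snrp panel the libraries overlap at 513 and 475 CPM in the low-count barcodes and part to 640 and 1096 CPM in cells.

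Counted by cell, with every cell thinned to 500 UMIs, 24.7% of KO LPS cells [20.1, 29.8] and 39.9% of WT LPS cells [37.4, 42.5] held a Snrp UMI. Free RNA alone would give 22.6% and 21.1%, so that the KO LPS share could not be told from that background. Without thinning the shares were 45.6% and 63.2%. For the ring, 15.6% [11.8, 20.1] and 29.5% [27.1, 31.9] of cells held a UMI, over a background of 11.2% and 13.4%. At least 1 UMI of any member was present in 98.4% and 98.9% of thinned cells, against 98.4% and 98.5% from free RNA, which leaves nothing to read from that share.

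The list of LSm proteins, relatives of the Sm proteins, holds Lsm1 to Lsm7 of the U6 and mRNA decay rings, Lsm10 and Lsm11 of the U7 snRNP, Lsm12, Lsm14a, Lsm14b and Naa38. Of 13 measured, 8 (61.5%) were at least 1.5-fold lower in KO LPS and 0 higher, beside 25.8% and 26.2% of all genes. Of those 8, 5 are among the 7 genes of the U6 and decay rings, 2 are the U7 genes and 1 is Naa38. The median log2 ratio was -0.65, and together they had 396 CPM in KO LPS against 669 CPM in WT LPS, a ratio of 0.592 [0.497, 0.701]. Lsm4, which had most UMIs, had 12 and 207 (31.5 and 104 CPM), 3.31-fold lower. Among list genes of at least 50 UMIs, to which highest and lowest refer here and for the lists below, Naa38 had the lowest ratio, with 3 and 64 UMIs, a symbol once also used for Lsm8, so its identity is uncertain. Lsm14a, a translation repressor of processing bodies, was highest of the list, with 34 and 175 UMIs (89.2 and 88.0 CPM). In low-count barcodes the LSm levels were 317 and 339 CPM.

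Proteins that assemble the ring had a median log2 ratio of -0.45, and 5 of 14 measured (35.7%) were lower, beside 25.8% of all genes. Smn1, the core of the assembly complex, had 18 and 192 UMIs (47.2 and 96.5 CPM), a log2 ratio of -1.00. Tgs1, which methylates the cap of small nuclear RNAs, had 112 and 570 UMIs (294 and 287 CPM). Strap, a subunit of the same complex, had 15 and 63 UMIs and a log2 ratio of 0.35. Gemin4 was at 0 in KO LPS and had 1 UMI in WT LPS.

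The further snRNP and tri-snRNP proteins did not share the low Snrp median. Their median log2 ratio was 0.01 over 23 genes, with 5 of 23 lower (21.7%) and 0 higher, beside 25.8% and 26.2% of all genes. Snrnp70, the U1 protein with most UMIs, had 232 and 1069 UMIs (608 and 537 CPM), and Snrnp200, a U5 helicase, had 26 and 99 with the highest log2 ratio of 0.47. Nhp2l1, an older symbol of the U4-binding protein Snu13, had the lowest, -2.01, from 3 and 73 UMIs.

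The Sf3 family showed little difference in its summed level, 1330 CPM in KO LPS against 1307 CPM in WT LPS, a ratio of 1.02 [0.923, 1.12]. No Sf3 gene was higher by the mark and 3 of 8 were lower (37.5%, beside 25.8% of all genes), all 3 of the SF3B complex. Sf3b1, the branch site subunit that is often mutated in blood cancers, held most of the UMIs, 304 and 1398 (797 and 703 CPM), with a ratio of 1.13 [0.999, 1.29]. Sf3b2 had 109 and 599 UMIs (286 and 301 CPM), and Sf3a3, of the SF3A complex, 41 and 211 (108 and 106 CPM), both within counting error of 1. Sf3b5, a small subunit, had the lowest log2 ratio, -0.85, with 12 and 117 UMIs (31.5 and 58.8 CPM), 1.87-fold lower [1.03, 3.72]. Sf3b3 with 8 and 70 UMIs and Sf3b4 with 9 and 75 were also past the mark, but their intervals, [0.806, 4.04] and [0.798, 3.63] for the fold, include 1. Sf3b5 was short of the mark with thinned cells, at a log2 ratio of -0.38, and in the 200 and 565 Xist cells, at -0.22, and Sf3b3 and Sf3b4 were short of it in 4 and 6 alternatives. The SD of the 8 log2 ratios was 0.39, and counting error alone would give 0.40. Sf3a1 and Sf3a2 had log2 ratios of 0.11 and -0.26.

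None of the 10 Srsf genes was past 1.5-fold in either direction, where 25.8% of all genes were lower and 26.2% higher. Their summed level was 2101 CPM in KO LPS against 2321 CPM in WT LPS, a ratio of 0.905 [0.839, 0.976]. Srsf11, an SR-related member, had most UMIs, 253 and 1220 (664 and 613 CPM), with a ratio of 1.08 [0.941, 1.24]. Srsf5 had 158 and 934 UMIs (414 and 470 CPM), a ratio of 0.882 [0.741, 1.05]. Srsf2, which binds exonic enhancers and overlaps the gene Mfsd11, had 98 and 657 UMIs (257 and 330 CPM), a ratio of 0.778 [0.623, 0.963]. The family ran from Srsf6 to Srsf1. Srsf6 was just inside the mark, with 51 and 398 UMIs (134 and 200 CPM) and a log2 ratio of -0.57. Srsf1, the archetypal SR protein, had 33 and 129 UMIs (86.5 and 64.9 CPM), a ratio of 1.33 [0.882, 1.97]. The SD of the 10 log2 ratios was 0.28 against 0.22 from counting. The 5 Srsf genes not named so far had log2 ratios between -0.35 for Srsf7 and -0.01 for Srsf4. The 8 classical SR proteins summed to a ratio of 0.842 [0.765, 0.925], and the other two, Srsf10 and Srsf11, to 1.04 [0.912, 1.18].

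The lists that act on or beside SR proteins differed little as groups. Of 27 SR-related proteins 3 were higher (11.1%) and 1 lower (3.70%), both under the 26.2% and 25.8% of all genes, with a median log2 ratio of -0.03. Son, a large nuclear speckle protein, had 756 and 3362 UMIs (1983 and 1690 CPM). Sfrs18, an older symbol of Pnisr, was highest at 632 and 1828 UMIs and a log2 ratio of 0.85, and Rnps1 lowest at 12 and 150 UMIs and -1.21. Of 14 kinases, phosphatase subunits and import factors of SR proteins 2 were higher (14.3%) and 1 lower (7.14%). In that list the kinase Prpf4b had most UMIs, 219 and 1456, Dyrk1a the highest log2 ratio, 1.58 from 29 and 51 UMIs, and Ppp1ca, a phosphatase subunit, the lowest, -0.59 from 29 and 231.

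Of the 20 Hnrnp genes 5 (25%) were at least 1.5-fold lower in KO LPS and 4 (20%) higher, shares near or under the 25.8% and 26.2% of all genes. The SD of their log2 ratios was 0.60 against 0.26 from counting error, and that of all genes 1.17 against 0.55. In sum the family had 5001 CPM in KO LPS against 5962 CPM in WT LPS, a ratio of 0.839 [0.799, 0.880]. Hnrnpa2b1, which carries RNA in granules and is the member with most UMIs, had 395 and 2434 UMIs (1036 and 1224 CPM), a ratio of 0.847 [0.759, 0.942]. Hnrnpu, a scaffold protein that binds nuclear RNA, had 294 and 2322 UMIs (771 and 1167 CPM), 1.51-fold lower [1.34, 1.72]. Hnrnpm had 220 and 1219 UMIs (577 and 613 CPM), a ratio of 0.941 [0.812, 1.09]. A Hnrnpu UMI was present in 26.9% of thinned KO LPS cells and 43.9% of WT LPS cells, below the 34.3% and 47.3% that free RNA would give, so this share is read as background. Of the 21 members past the mark, 5 had a share at or below that from free RNA in both libraries: Hnrnpab (5.31% against 9.58% in KO LPS and 10.3% against 10.8% in WT LPS), Hnrnpul1 (4.69% against 7.27% and 3.29% against 3.42%), Hnrnph3, Snrpc and Hnrnpu itself. Their folds in cells can therefore not be told from free RNA by these shares.

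The other four lower Hnrnp genes came from 3 subgroups. Hnrnpf, a G-tract binding protein, had the lowest ratio of the family, with 30 and 327 UMIs (78.7 and 164 CPM), 2.09-fold lower [1.44, 3.15]. Hnrnpdl had 87 and 826 UMIs (228 and 415 CPM), 1.82-fold lower [1.46, 2.30]. Its relative Hnrnpab had 59 and 559 UMIs (155 and 281 CPM), 1.82-fold lower [1.39, 2.42]. These relatives bind AU-rich RNA and had nearly the same ratio. Hnrnpl, which binds CA repeats, stood just past the mark with 56 and 447 UMIs (147 and 225 CPM), 1.53-fold lower [1.16, 2.06]. In the 12 and 195 cells with a Y-linked and no Xist UMI, Hnrnpf was at a log2 ratio of -0.087, Hnrnpab at -0.11 and Hnrnpu at -0.33, all short of the mark. Hnrnpu was short of it in 3 alternatives and Hnrnpl in 6, the latter at log2 ratios from -0.57 to -0.37, while Hnrnpdl stayed past it in every alternative that gave it a value.

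All 4 higher Hnrnp genes had intervals above 1. Hnrnph1, of the same subgroup as Hnrnpf, had 106 and 313 UMIs (278 and 157 CPM), 1.77-fold higher in KO LPS [1.40, 2.21]. Hnrnph3 had 32 and 89 UMIs (83.9 and 44.7 CPM), 1.88-fold higher [1.21, 2.84], the highest ratio of all 49 members. The remaining pair lies in other subgroups. Hnrnpa0, an intronless gene, had 31 and 91 UMIs (81.3 and 45.8 CPM), 1.78-fold higher [1.14, 2.70]. Hnrnpul1, a relative of Hnrnpu with a part in DNA repair, had 50 and 149 UMIs (131 and 74.9 CPM), 1.75-fold higher [1.24, 2.43], and it was short of the mark in 4 alternatives, at log2 ratios from 0.49 to 0.54. The F/H subgroup thus held both the lowest and the highest ratio of the family, and as a sum it lay at 1.13 [0.961, 1.31]. Hnrnpa1 had only 5 and 34 UMIs. It has many processed copies in the genome, and how reads shared between copies were counted was not given, so its count is uncertain. The 8 Hnrnp genes not named so far had log2 ratios between -0.31 for Hnrnpk and 0.50 for Hnrnpa3, none past the mark. In the 12 cells of KO LPS and 195 of WT LPS with a Y-linked and no Xist UMI, the Hnrnp median was 0.33, against -0.24 in all cells and -0.21 in cells with the opposite pattern.

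The other splicing lists are set beside the 25.8% lower and 26.2% higher of all genes. Of 35 branch site, 3′ splice site and step factors 6 were lower (17.1%) and 3 higher (8.57%), with a median log2 ratio of -0.27, from Ctnnbl1 at -1.66 with 3 and 57 UMIs to Syf2 at 1.20 with 96 and 218, with most UMIs in Prpf38b (349 and 2377). Of 14 spliceosomal helicases 4 were lower (28.6%) and 0 higher, with a median of -0.20. Ddx5, with most UMIs, had 535 and 3006 (1403 and 1511 CPM), Ddx39 was lowest at -1.78 and Ddx17 highest at 0.53. Of 16 exon junction complex genes 4 were lower (25%) and 3 higher (18.8%), with a median of -0.11. There Thoc2 had most UMIs, 186 and 750, Smg6 was highest at 1.17 and Alyref lowest at -1.01. Of 28 other splicing regulators 6 were lower (21.4%) and 5 higher (17.9%), with a median of 0.16. Qk, an RNA-binding regulator of myelin and glial transcripts, was highest with 604 and 841 UMIs (1584 and 423 CPM), a log2 ratio of 1.91. Ybx1, a cold shock domain protein, had most UMIs, 125 and 1945 (328 and 978 CPM), and a log2 ratio of -1.57, and Rbm3, induced by cold, was lowest at -1.80.

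Within the members, cell-to-cell spread was close to counting error. With cells thinned to 500 UMIs, the variance over the mean is 1 where only counting acts. For members with a mean of at least 0.05 UMIs it had a median of 1.12 in KO LPS (27 members) and 1.04 in WT LPS (26 members), where all genes of that mean had 1.13 and 1.09. The highest were Sf3a3 at 1.42 in KO LPS and Snrpd3 at 1.21 in WT LPS, and the lowest was Srsf7 in both, at 0.944 and 0.959.

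The members lie on 18 chromosomes, and 13 of 49 overlap another protein-coding gene. Among those past the mark these are Hnrnpf (with 4933440N22Rik), Hnrnpdl (Enoph1), Hnrnpab (Phykpl), Hnrnpu (Cox20), Hnrnph3 (Rufy2), Sf3b3 (Cog4), Snrpa (BC024978) and Snrpf (Ccdc38). Whether counting used the strand was not given in the sources used here, so reads of such pairs cannot be told apart.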

How the data were processed

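Single-cell RNA was measured in 1 library per genotype, and groups came from the genotype and treatment labels. The authors deposited raw counts, UMIs per gene and barcode, for 9999 barcodes per library, not filtered to cells and not normalized. The submitters' processing notes name bcl2fastq 2.0, STAR and the builds mm9 and mm10 without their roles. The annotation, the counting program and the use of strand were not given in the sources used here. Genes listed in 1 library only (5616 missing in KO LPS, 3036 in WT LPS) were read as 0.

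Cells were barcodes with at least 500 UMIs and 100 genes, which held 55.7% (KO LPS) and 64.9% (WT LPS) of all UMIs. This differs from the study's call by DropletUtils. Its stated minimum of 100 genes alone leaves 676 and 3618 barcodes. The study reported more cells of each genotype than are used here, and more KO cells than those 676 barcodes. Doublets were left in. UMIs were summed over cells, and log2 ratios took a prior count of 0.5 per gene and library. Levels have Poisson, ratios conditional binomial and shares Clopper-Pearson 95% intervals, all exact, and the fold of 1.5 is a rule of size with no test. The background of shares is the profile of barcodes with 100 UMIs or fewer. Python 3.11.15, numpy 2.4.6, scipy 1.17.1 and pandas 2.3.3 were used, and the ratios were tested on simulated data.

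Values are given for the 3 members of each family with most UMIs, the highest and lowest ratio among members with at least 50 UMIs, and all such members at least 1.5-fold apart. In other lists the gene with most UMIs and those with the highest and lowest ratio under the same minimum are named. Srsf4, Srsf7, Srsf9 and the remaining members appear in the plot of levels. Gemin4, the overlapping genes and the LSm symbol were named after their values were seen. Members and lists were chosen with earlier results of these data known, and the inflammatory response and DNA replication lists were added after the data were seen. Sfr1, a repair gene that the list of other splicing regulators held in error, was removed after its value was seen. Comparison with expression-matched genes was made by bands of total UMIs. Positions and promoters are RefSeq on GRCm38.p6, found by symbol (43 of 49 members had a promoter). Transcript lengths are canonical transcripts of GENCODE vM39 (8805 of 9085 genes, or 96.9%). Protein features were planned but not analysed here.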

Additional observations from a re-analysis of the deposited data

How the results depend on the processing

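No paired analysis was possible because each genotype has 1 library and no result comes from a test. The 2 libraries limit every comparison to these pools, and in KO LPS 7 of 11 Snrp genes rest on 15 UMIs or fewer. Over the alternatives run, the median log2 ratio stayed between -1.17 and -0.69 for Snrp and between -0.25 and -0.04 for Srsf, and lay between -0.29 and 0.18 for Sf3. Of 347 alternative values of the 21 members past 1.5-fold, 346 kept their direction and 314 stayed past it.

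Cells with a Y-linked UMI and no Xist UMI (12 and 195 cells, 14445 UMIs in KO LPS) moved most values: the median was 0.16 for all members and 0.33 for Hnrnp, 10 of 39 members were higher and 10 of 39 lower (33.3% and 34.9% of all 3377 genes), the ratio of summed levels was 0.976, and Snrpd3 turned to 0.31. There the Snrp median was -1.17. The median log2 ratio of the Hnrnp family was -0.0494 with cells thinned to 500 UMIs. Against the median of all genes of the same transcript length band, chosen after the data were seen like the next, it was -0.47 and that of Snrp -0.69, and against genes of the same band of total UMIs the Hnrnp median was -0.0833. The cause was not tested. A prior count of 2 moved the median of all genes to 0.16, and a minimum of 1 UMI moved it to 0.36. Unthinned shares of cells with a UMI in KO LPS and then in WT LPS were 80.3% and 87.5% for Srsf, 96.6% and 98.2% for Hnrnp, 68.4% and 71.7% for Sf3 and 45.6% and 63.2% for Snrp. The median variance over mean of members was 1.12 and 1.09 with thinning to 1000 UMIs.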

Other observations

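Within WT LPS the Sm ring differed with the inflammatory response UMIs of the cell, a range of 1 score and not a cell type. After thinning to 500 UMIs, 1084 cells held at least 3 such UMIs, 270 held 1 or 2 and 73 held none. The ring level was 821 CPM in the first set and 384 CPM in the last, a ratio of 2.14 [1.26, 3.95], with 513 CPM in between. For all Snrp genes the ratio was 1.44 [0.996, 2.18], for Srsf 1.04 [0.832, 1.32], for Hnrnp 0.997 [0.869, 1.15], for Sf3 0.815 [0.627, 1.08] and for the LSm proteins 1.01 [0.679, 1.57]. The 73 cells hold 14 ring UMIs, so the ratio rests on few counts, and cells of 1 library are not replicates.

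In cells with none of the inflammatory UMIs (203 of KO LPS and 73 of WT LPS) the ring level was 325 CPM in KO LPS against 384 CPM in WT LPS, a ratio of 0.848 [0.441, 1.71], and the Snrp ratio was 0.707 [0.444, 1.15]. In cells with 1 or 2 such UMIs (109 and 270) the ring ratio was 0.825 [0.491, 1.34]. Both ring intervals also hold the 0.506 of all cells. The LSm ratio was 0.470 [0.274, 0.816] in cells with none and 1.07 [0.650, 1.73] in cells with 1 or 2. Only 8 cells of KO LPS held at least 3, with 0 ring UMIs, so the groups could not be compared there. Whether the difference between these sets and the libraries as a whole exceeds counting error was not tested.

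By DNA replication UMIs, the 69 cells of WT LPS with at least 2 and the 1079 with none had a ratio of 1.07 [0.959, 1.18] for all members, 0.947 [0.650, 1.34] for Snrp, 0.660 [0.381, 1.07] for the ring and 1.30 [0.974, 1.70] for Sf3. Of 19 measured DNA replication genes 15 (78.9%) were at least 1.5-fold lower in KO LPS and 1 (5.26%) was higher, beside 25.8% and 26.2% of all genes. The 25 listed summed to 268 CPM in KO LPS against 701 CPM in WT LPS. That list too was drawn up after the data were seen, so its count is no independent measure. Between the libraries the Snrp ratio in cells with none of these UMIs was 0.501 [0.387, 0.640].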
